A study of Rattus norvegicus with 2 samples.

Results

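The miR-23, miR-27 and miR-24 microRNAs (miRNAs) were examined in the nucleus accumbens (NAc), a region of the ventral striatum involved in reward, of male Sprague-Dawley rats given alcohol or vehicle. The members were taken by name from the array, namely rno-miR-23a, rno-miR-23b, rno-miR-24, rno-miR-27a and rno-miR-27b, without the passenger strands, whose names end in an asterisk. These are 5 of the 349 rat miRNA probes. The 18 rats weighed 150 to 180 g at the start and were divided between vehicle (500 µl saline) and alcohol (1 g/kg), both injected ip bid for 7 days. The tissue held core and shell, and small RNA was hybridized to 1-colour Cy3 arrays, with 1 array for each group. Whether an array held RNA of 1 rat or of several is not given in the sources used here. The difference between the groups therefore has no replicate check, and no test was made. An SD below is taken over the 9 repeat spots of a probe, which measure the same RNA, and covers the error within an array only. In bulk tissue, fewer cells of a type and less RNA per cell cannot be told apart.

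A miRNA guides silencing complexes to mRNAs that pair with its seed, the bases near its 5′ end, and miRNAs with the same seed are predicted to share targets. The miR-23, miR-27 and miR-24 hairpins lie together at a pair of paralogous loci, each transcribed as a polycistron. The a cluster encodes miR-23a, miR-27a and miR-24-2, and the b cluster encodes miR-23b, miR-27b and miR-24-1. They are known from endothelial cells, where they take part in vessel growth, and from other tissues. miR-23 represses glutaminase, and in oligodendrocytes lamin B1. miR-27 is best known as a repressor of genes of lipid metabolism and adipogenesis. miR-24 is known for targets in the cell cycle and apoptosis.

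The mature sequences show how far each probe can separate the clusters. Each target listed on the array was identical to a RefSeq mature sequence (build GRCr8), and each is written 5′ to 3′ with the seed, bases 2 to 8, in capitals.
rno-miR-23a: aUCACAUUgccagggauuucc
rno-miR-23b: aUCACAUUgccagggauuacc
rno-miR-27a: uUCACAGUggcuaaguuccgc
rno-miR-27b: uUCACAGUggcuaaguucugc
rno-miR-24: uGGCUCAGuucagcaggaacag
The paralogs miR-23a and miR-23b differed at 1 of 21 bases (U19A, counted from 1 at the 5′ end of the a form). miR-27a and miR-27b also differed at 1 of 21 bases, at the same position (C19U). Both differences lie outside the seed. The seed UCACAUU was found at bases 2 to 8 of 2 of the 349 array miRNAs (0.573%), which are miR-23a and miR-23b. The seed UCACAGU was found there in miR-27a and miR-27b alone (0.573%), and GGCUCAG in miR-24 alone (0.287%). The seeds of miR-23 and miR-27 shared 6 of 7 bases. miR-24 is identical from both loci, so its single probe reports the sum of the clusters.

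In GRCr8 the a cluster spans 389 bases on the minus strand of chromosome 19 (40859455 to 40859843), in the order Mir23a, Mir27a, Mir24-2 along the transcript. No other gene of the RefSeq table overlaps it, and the nearest on one side is Zswim4. The b cluster spans 814 bases on the minus strand of chromosome 17 (1818669 to 1819482), in the same order. It lies within the span of the protein-coding gene Aopep, which encodes an aminopeptidase, and the Fancc and Mir3074 entries lie close to it or overlap it. On chromosome 19 the mature miR-23a lies at 40859778 to 40859798, miR-27a at 40859614 to 40859634 and miR-24 at 40859481 to 40859502. On chromosome 17 miR-23b lies at 1819405 to 1819425, miR-27b at 1819163 to 1819183 and the other copy of miR-24 at 1818672 to 1818693.

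In the main setting the probes of the a cluster alone were brighter on the alcohol array, miR-27a by far more than miR-23a. After normalization, miR-27a was 3.57-fold higher on the alcohol array (log2 ratio of alcohol over vehicle 1.84 ± 0.51, SD over 9 spots), and miR-23a was 1.36-fold higher (0.44 ± 0.26). Their b paralogs were near equal on both arrays, with log2 ratios of 0.09 ± 0.16 for miR-27b and -0.00069 ± 0.11 for miR-23b. The shared miR-24 stood at 0.03 ± 0.12. In this main setting the members brighter by at least 1.3-fold were thus the 2 that come from the a cluster alone. miR-23a passed this threshold narrowly, and it was 1.25-fold higher in the signals processed by the authors. Over 19 alternative settings, given below, the count of such members ran from 1 to 4. Counts were taken over miRNAs that were detected on one array or both and whose normalized signal reached 400 on the brighter array. All 5 members passed. Among the 125 miRNAs that passed, 33 (26.4%) were higher with alcohol by 1.3-fold or more and 26 (20.8%) lower by 1.3-fold or more, against 2 and 0 of the members. The median log2 ratio was 0.09 over the members and 0.04 over the 125. A count of 2 in 5 is not far from this background, and only the sizes of the single members are described further.

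**Figure D1:**
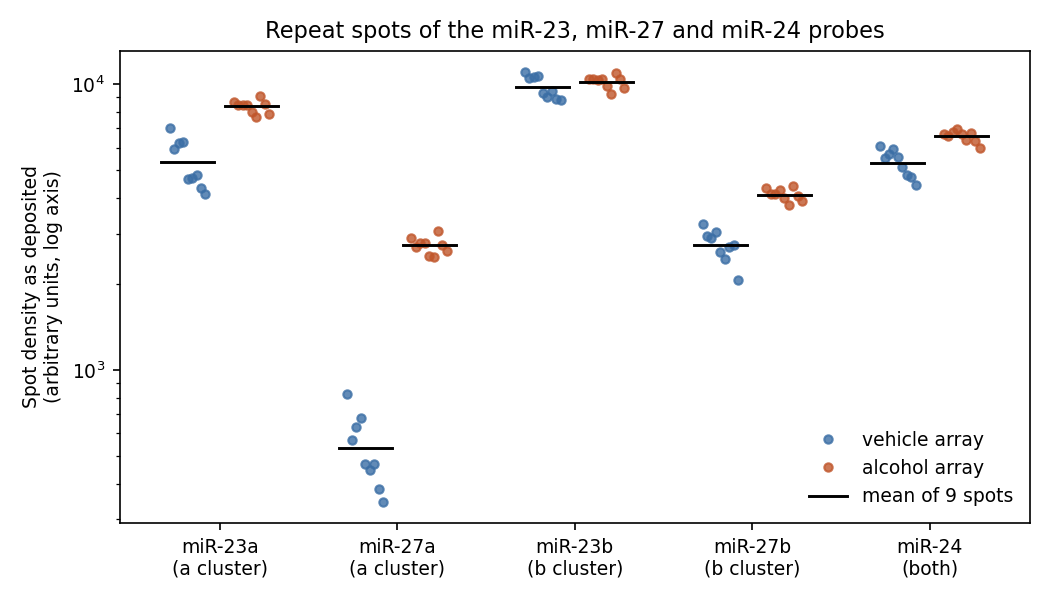
Spot densities as deposited (arbitrary units, log axis) of the 9 repeat spots of each member on the vehicle array (blue) and the alcohol array (orange), with black lines at the mean. The spots of miR-27a lie between 346 and 826 on the vehicle array and between 2491 and 3059 on the alcohol array, while those of miR-23b overlap.

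On the deposited scale, before background correction, the miR-27a spots had a lowest, median and highest density of 346, 469 and 826 on the vehicle array. On the alcohol array they were 2491, 2743 and 3059. All spots of the alcohol array were above all spots of the vehicle array. The dimmest vehicle spot of miR-27a was above the detection limit of 278 on that array. The vehicle value can still include signal from miR-27b, as set out below, and it depends on the background taken. The log2 ratio was 1.68 without background correction and 2.11 with subtraction of the median of the mismatched control spots. After normalization the signals were 535 for vehicle and 1910 for alcohol. The normalized spots still did not overlap, with a highest vehicle spot of 974 and a lowest alcohol spot of 1744. By spot position the fold of miR-27a ranged from 2.09 to 5.96.

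The miR-27b spots were at 2058, 2728 and 3245 (lowest, median, highest) for vehicle and at 3781, 4117 and 4405 for alcohol. These deposited densities did not overlap. The arrays differed in brightness, with a median density of 952 (vehicle) against 1951 (alcohol) over the 150 miRNAs detected on both, and after normalization the miR-27b signals were 3127 and 3339, with overlapping spots. At 6 of 9 positions the normalized miR-27b spot was brighter on the alcohol array.

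The miR-23a spots were at 4130, 4805 and 7049 for vehicle and at 7661, 8475 and 9113 for alcohol. Again no deposited density overlapped. The normalized signals were 5596 and 7591, the normalized spots overlapped, and the alcohol spot was brighter at 9 of 9 positions, by 1.04-fold to 1.68-fold. For miR-23b the deposited densities were 8804, 9496 and 11007 for vehicle and 9271, 10382 and 10970.5 for alcohol. They overlapped over most of their range, and the normalized signals were 9877 and 9873.

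For miR-24 the densities were 4426, 5507 and 6064 for vehicle and 5973, 6677 and 6962 for alcohol. The ranges overlapped slightly. The normalized signals were 5731 and 5856, and 4 of 9 positions were brighter on the alcohol array. As deposited, 3 of the 5 members had spots that did not overlap, which was so for 67.2% of the 125 miRNAs. After normalization miR-27a was the 1 member whose spots did not overlap, against 35.2% of the 125.

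**Figure D2:**
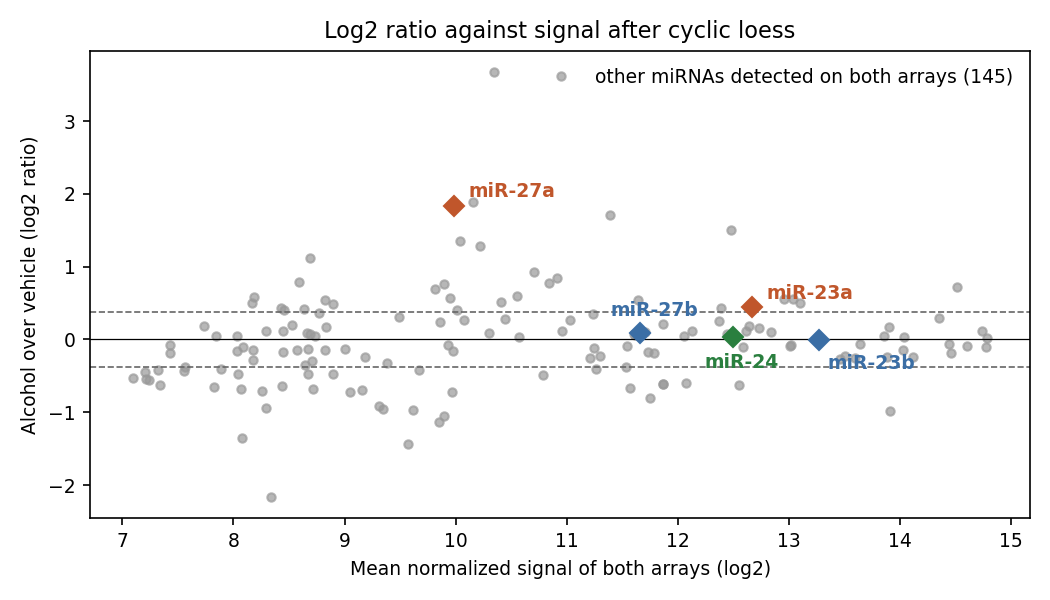
Log2 ratio of alcohol over vehicle against the mean normalized signal of both arrays (log2) for the 150 miRNAs detected on both, with members as diamonds (a cluster orange, b cluster blue, miR-24 green) and dashed lines at 1.3-fold. miR-27a, at 1.84, stands near the top, and miR-23b, miR-27b and miR-24 lie close to 0.

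Among the 150 miRNAs detected on both arrays, whose median log2 ratio was -0.07 with an SD of 0.67, miR-27a had the third highest ratio, after miR-29b (3.67) and miR-335 (1.90). miR-23a ranked 27, miR-27b 57, miR-24 70 and miR-23b 73. Of the 30 detected miRNAs nearest to miR-27a in mean signal, 2 had a higher ratio, and the median of the 30 was 0.16 (SD 1.04). Of the 30 nearest to miR-23a, 4 had a higher ratio, and the median of the 30 was 0.04 (SD 0.45). The ratio of miR-23a was thus less than 1 such SD above that median. For miR-23b, miR-24 and miR-27b, between 13 and 19 of the 30 nearest had a higher ratio. Across the levels of both arrays, the detected miRNA closest to miR-27a was miR-335, with normalized signals of 592 and 2201. The closest to miR-23a was miR-103 (log2 ratio 0.19), to miR-23b miR-139-5p (-0.27), to miR-24 miR-181a (0.08) and to miR-27b miR-328 (0.06).

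The passenger strands bear on miR-24, since the strands from its hairpins can be told apart where the mature form cannot. Their targets are written with the bases that differ in capitals.
rno-miR-24-1*: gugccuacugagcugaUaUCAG
rno-miR-24-2*: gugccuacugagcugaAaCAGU
miR-24-1* comes from the b cluster and miR-24-2* from the a cluster, and they differed at 5 of 22 bases. Both were at background. The 9 spots of miR-24-1* had median densities of 246 for vehicle and 161 for alcohol, and those of miR-24-2* 250 and 172. The medians of 88 mismatched control spots were 241 and 145. At most 1 of 9 spots of either strand passed the detection limit on an array. The probes for miR-23a* and miR-27a* had 0 of 9 spots above the limit on both arrays. A change of one miR-24 locus against the other was therefore not detectable from the passenger strands.

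**Figure D3:**
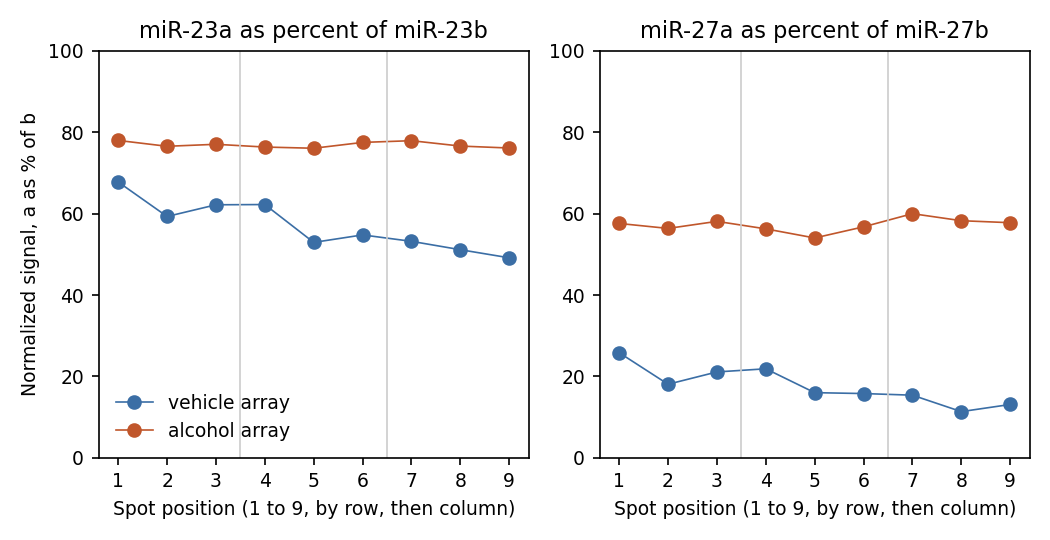
Normalized signal of miR-23a as percent of miR-23b (left) and of miR-27a as percent of miR-27b (right) at each of the 9 spot positions, on the vehicle array (blue) and the alcohol array (orange). Grey lines separate the 3 groups of rows. At all 9 positions of both pairs the percentage was higher on the alcohol array, and on the vehicle array it was lowest in the last rows.

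The a and b probes of a family were spotted in the same columns, 2 rows apart, so they could be compared position by position on each array. Brightness also depends on how well each probe binds, and a percentage of a over b is no ratio of molecules. Its change between the arrays does not depend on a constant scaling of an array. On the vehicle array the signal of miR-27a was 17.1% of that of miR-27b, between 11.4% and 25.8% over the positions. On the alcohol array it was 57.2%, between 54.0% and 59.98%. The difference of the log2 ratios of miR-27a and miR-27b was 1.74 ± 0.38 (SD over 9 positions), which is a 3.35-fold change of one signal relative to the other. miR-23a was at 56.7% of miR-23b on the vehicle array (49.1% to 67.8%) and at 76.9% on the alcohol array (76.05% to 77.97%). The difference of the log2 ratios of miR-23a and miR-23b was 0.44 ± 0.15, or 1.36-fold. Such ranges over the positions were not set against those of other pairs. In both families the a form was the dimmer at 9 of 9 positions on each array.

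The b paralog can add signal to the a probe where it binds despite the differing base. On the vehicle array such signal from miR-27b could not exceed the whole signal of the miR-27a probe, 17.1% of miR-27b, or 11.4% in the signals processed by the authors. On the alcohol array the same limit was 57.2%, and the limit of one array does not hold for the other. Control probes with mismatches were set against their matched partners, above the median of the mismatched spots. Their mismatches were not matched in number or place to the differing base of miR-27a and miR-27b. Pairs that share a matched probe are not independent. In the 10 pairs whose matched probe was detected on both arrays, the median mismatched signal was -0.08% of the matched one with vehicle and 0.04% with alcohol. These medians were fixed near the level subtracted and give no measure of mismatched binding. The highest mismatched percentage was 0.138% with vehicle. With alcohol the highest were 7.78% and 1.35%, both from the same control, and the other 8 mismatched probes were not detected. In 6 further pairs the matched probe was detected with alcohol only, and 1 mismatched probe, itself not detected, stood at 28.7% of a matched probe with a mean density of 217. The part of such binding in the miR-27a result was not tested.

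**Figure D4:**
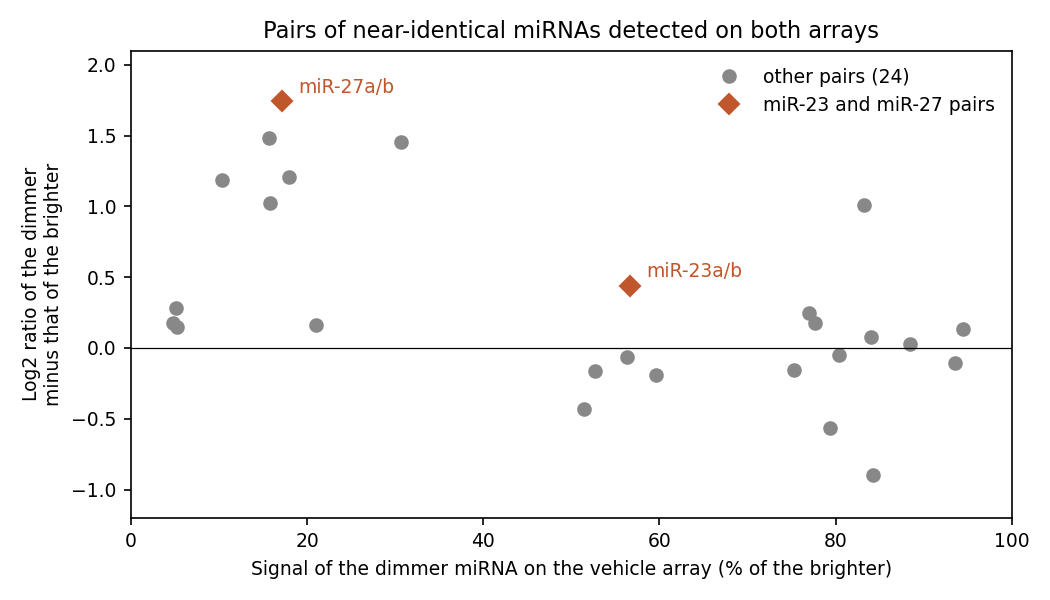
Pairs of miRNAs that share bases 2 to 8 and differ at up to 2 bases, each as 1 point, with the vehicle signal of the dimmer as percent of the brighter on the x axis and the log2 ratio of the dimmer minus that of the brighter on the y axis. The miR-27 pair is the highest of 26, and all pairs left of 50% lie above 0. Both axes use the vehicle signal, so they are not independent.

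Other near-identical miRNAs gave a scale for these differences. In all, 26 pairs of miRNAs detected on both arrays shared bases 2 to 8 and differed at up to 2 of the compared bases. Since many miRNAs of the let-7 family enter several pairs, the pairs are not independent. The absolute difference of log2 ratios had a median of 0.19 over the 24 other pairs and ranged from 0.03 to 1.48. The miR-27 pair, at 1.74, was above all 24, the largest of which was miR-92a and miR-92b. The miR-23 pair, at 0.44, was below 8 of them. In 9 of the 24 other pairs the dimmer miRNA had less than 50% of the signal of the brighter on the vehicle array, and in 9 of these 9 it gained on its partner on the alcohol array, as miR-27a did. In the 15 other pairs at 50% or more, the dimmer gained in 6. The vehicle signal both picked the dimmer miRNA and entered its gain, so error in that signal favours a gain in unequal pairs. The counts are therefore a description only. The part of this pattern in the miR-27a result was not tested.

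Signal was not even over the vehicle array. The 9 spots of a probe lay in 3 groups of rows, and over the 150 miRNAs detected on both arrays the background-corrected signal of the first rows was above that of the last by a median of 1.19-fold on the vehicle array and 1.002-fold on the alcohol array. On the vehicle array this factor was 2.01 for miR-27a and 1.46 for miR-23a, and it was 1.24 for miR-27b and miR-24 and 1.18 for miR-23b. miR-27a ranked 7 of 150 by this factor. On the alcohol array the factor was between 0.997 and 1.05 for the 5 members. The mean density of miR-27a was 676, 530.5 and 399 in the first, middle and last rows of the vehicle array, a factor of 1.69 before background correction, beside 2789, 2591 and 2802 on the alcohol array. Its log2 ratio was accordingly 1.38, 1.73 and 2.39 in the 3 groups of rows, and that of miR-23a was 0.19, 0.41 and 0.72. For miR-23b the 3 values were -0.11, -0.03 and 0.13. Across the 150 miRNAs, the factor on the vehicle array and the log2 ratio in the middle rows were related with r = 0.62 (Pearson) and rho = 0.53 (Spearman). The factor does not use the middle rows, but the normalization of that ratio used all 9 spots, so they are not fully separate. The relation is a description across miRNAs only, since all points share the same arrays. The part of this unevenness in the results of miR-27a and miR-23a was not tested.

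**Figure D5:**
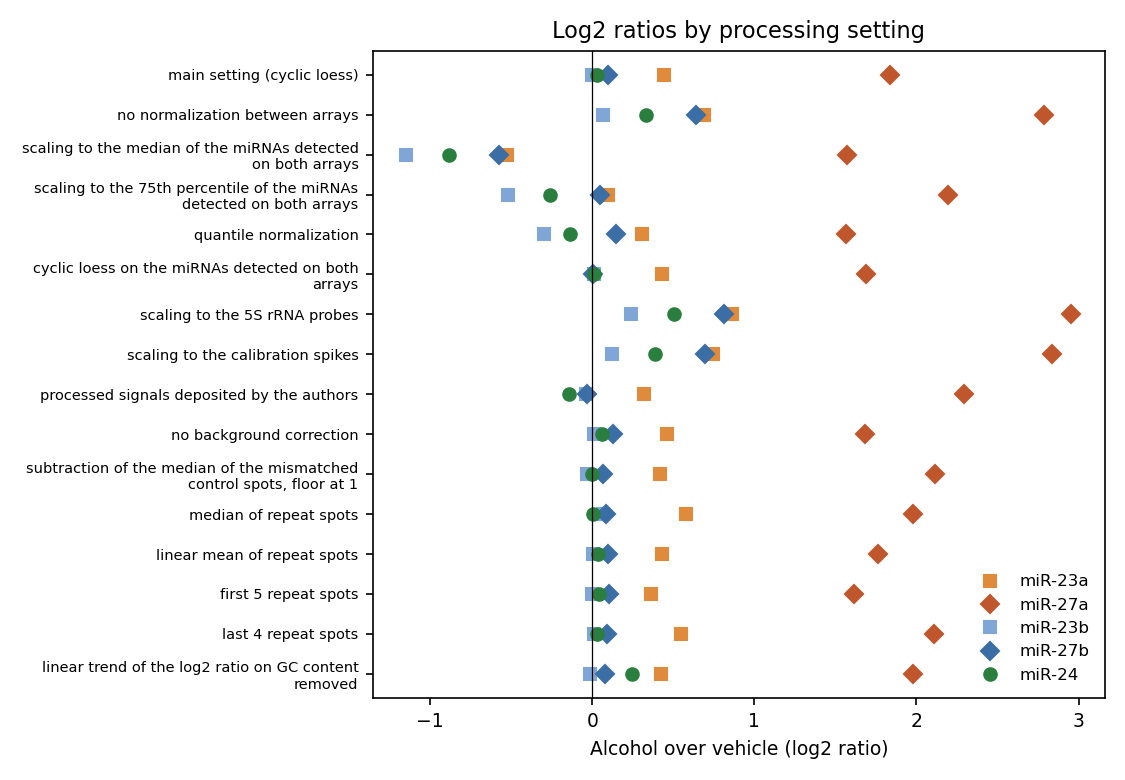
Log2 ratio of alcohol over vehicle of each member under the main setting and 15 alternatives (rows). miR-27a lies right of all other members in every row, from 1.56 to 2.96, and miR-23a lies right of miR-23b in every row.

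The scaling of the arrays moved all members. miR-27a was higher on the alcohol array in 15 of 15 alternatives, with log2 ratios between 1.56 and 2.96. miR-23a was higher in 14 of 15, and scaling to the median of the 150 miRNAs turned it to -0.53. Under that setting the median log2 ratio was -0.65 over the 150 miRNAs and -1.43 over all 349 probes. Measured from the median of the 150 miRNAs under each setting, miR-23a stood between 0.12 and 0.61 and miR-27a between 1.65 and 2.38 in the 15 alternatives. The ratios of miR-23b, miR-24 and miR-27b took both signs. The counts of 33 higher and 26 lower miRNAs were 85 and 8 without normalization, 17 and 79 with the median, 94 and 2 with the 5S rRNA probes, 89 and 6 with the calibration spikes and 25 and 33 in the signals processed by the authors. In those signals miR-27a went from 343 to 1682, miR-27b from 3003 to 2942, miR-23a from 5448 to 6789, miR-23b from 9214 to 8955 and miR-24 from 5596 to 5076.

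Marker miRNAs were set against the tissue label. All 6 neuron-enriched miRNAs listed, miR-9, miR-124, miR-128, miR-137, miR-138 and miR-129, were detected on both arrays, and 0 of 4 blood cell miRNAs were detected on either. The neuron-enriched miRNAs, which mark brain neurons in general and not the NAc, summed to 74208 with vehicle and 89267 with alcohol. Their log2 ratios ran from -0.69 for miR-129 to 0.55 for miR-137 and 0.72 for miR-9. Of the oligodendrocyte miRNAs, miR-219-5p and miR-338 were detected on the alcohol array and not on the vehicle array. The detection limit was lower on the alcohol array (179) than on the vehicle array (278). The normalized signal of miR-338 was 548 with alcohol and 177 with vehicle, and that of miR-219-5p was 145 and 144. Of 4 miRNAs typical of muscle and liver, 2 were detected on the vehicle array, miR-133a and miR-122, and 1 on the alcohol array, miR-122. The normalized signal of miR-122, a liver miRNA, was 685 with vehicle and 153 with alcohol, and its log2 ratio of -2.16 was the lowest of the 150. The vessel miRNAs bear on the clusters, which endothelial cells are known to express. All 3 listed were detected on both arrays, with a summed normalized signal of 8515 for vehicle and 10028 for alcohol and log2 ratios of 0.16 for miR-126, 0.23 for miR-143 and 0.60 for miR-145. The part of RNA from these other cell types in the results of miR-27a and miR-23a was not tested. miR-128 holds bases 3 to 8 of miR-27 at its bases 2 to 7, and its log2 ratio was 0.02. By base content, miR-27a (52.4% GC) was richer in GC than miR-27b (47.6%), while miR-23a and miR-23b were equal at 47.6%.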

How the data were processed

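Small RNA from rat NAc was measured on 1-colour Cy3 miRNA arrays, 1 for vehicle and 1 for alcohol, grouped by the treatment label. The authors deposited the intensity of each of 3968 spots as a mean pixel density with no background subtracted, and a linear processed signal intensity per probe after background subtraction and a cyclic normalization, whose settings are not given in the sources used here. The latter served as an alternative.

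From the spot densities, background was corrected by normexp (offset 50, fitted on all spots) in limma 3.58.1 under R 4.3.3. Log2 values of the 9 spots were averaged, and the arrays were normalized by cyclic loess on the 349 miRNA probes with a span of 0.7 and 3 iterations. Steps were tested on simulated data. A probe was detected where at least 5 of its spots passed a limit of 278 (vehicle) or 179 (alcohol), which is the median plus 3 scaled median absolute deviations of 88 mismatched control spots. Coordinates come from matching array targets to RefSeq mature sequences of GRCr8, which 289 of 349 targets equalled. No test or p-value was possible with 1 array per group, and precision is limited by having so few arrays. The miRNAs named are the members, passenger strands of their hairpins, the detected miRNA nearest to each member in both signals, the near-identical pair with the largest difference, and marker lists. Others were named after their values were seen. The members, lists and settings were chosen with earlier results of these data known. For near-identical pairs, lengths could differ by 2 bases. The alternatives were 15 settings of normalization, background, spot summary and base content, and 4 of the call rule.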

Additional observations from a re-analysis of the deposited data

How the results depend on the processing

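No paired analysis was possible because there is 1 array in either group. The miR-27a minus miR-27b difference of log2 ratios, 1.74, stayed above 0 in 15 of 15 alternatives. It was 2.15 without normalization and under each constant scaling (median, 75th percentile, 5S rRNA probes, calibration spikes), which leave it the same by construction, and 2.33 in the signals processed by the authors. The miR-23a minus miR-23b difference, 0.44, also stayed above 0, at 0.62 under those constant scalings and without normalization and 0.60 with quantile normalization. The remaining 9 alternatives of each moved it by less than its SD over spots. Of the members, 2 were at least 1.3-fold higher. The count was 1 with median scaling, the 75th percentile, quantile normalization, the authors' signals, the first 5 spots, and thresholds of 1.5-fold and 2-fold, 3 without normalization, and 4 with the 5S rRNA probes and the spikes. Members at least 1.3-fold lower numbered 0, and 4 with median scaling and 1 with the 75th percentile. The ratio of miR-23a turned to -0.53 with median scaling. The cause was not tested.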
